A study of Mus musculus with 12 samples.

Results

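Cholesterol synthesis, lipogenesis and sterol sensing were followed as a set of 36 listed genes in mouse kidneys. Members were found by the gene symbol that the platform annotation gives each probe set, and the probe set with the highest mean stood for a gene. In this way 31 of the 36 genes were measured, each by 1 probe set, among the 22206 probe sets of the array. They comprised 17 of 19 genes of sterol synthesis, 5 of 6 of sterol sensing, 4 of 5 of sterol efflux and 5 of 6 of fatty acid synthesis. No probe set matched Acat2, Tm7sf2, Srebf1, Nr1h2 or Scd2, which were not analysed here.

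Whole-kidney RNA of 12 samples was measured on Affymetrix Clariom S arrays, with 3 samples in each of 4 groups. Wild type mice were given vehicle, and Alport mice were given vehicle, losartan or metformin. Alport mice carried COL4A5 nonsense (G5X) in the hemizygous state, a mutation of the gene for a collagen chain that the filter of the glomerulus needs, and model the human hereditary nephritis of that name. Losartan, a blocker of the angiotensin II receptor, and metformin, a biguanide that lowers blood glucose, were dissolved in the drinking water. Losartan was given at 125 µg/mL and later at 250 µg/mL, and metformin at 2.5 mg/mL and later at 5 mg/mL. The stated age of all 4 groups was 16 weeks, while the later dose is dated from week 12 to week 20. Losartan is described as co-administered, so groups carry the name of the drug that their titles give. No label says that the samples of a group came from separate mice, and p-values then reflect no more than how these samples vary, and that variation may be technical.

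Cells make cholesterol from acetyl-CoA through the mevalonate pathway, which leads by way of isoprenoids and squalene to lanosterol and then to cholesterol. The transcription factor SREBP2, the product of Srebf2, switches these genes on. It is carried out of the endoplasmic reticulum by its escort SCAP when sterols are scarce, and INSIG proteins hold the complex back when sterols are plentiful. An excess of sterols also activates the LXR receptors, which switch on the exporters Abca1 and Abcg1 and genes of fatty acid synthesis. In the kidney, proximal tubule cells burn fatty acids as their main fuel and also make sterols.

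Of the motifs searched within 250 bases before the transcription start, only CCAAT was found for most sterol synthesis and sensing genes. RefSeq sequences of assembly GRCm38.p6 were matched by symbol for 25 of the 31 measured genes. No promoter was matched for Sqle, Fdps, Fdft1, Stard4, Abcg1 or Scd1, which were not searched. A total of 3 motifs were searched on both strands, namely the sterol regulatory element TCACNCCAC of SREBP, the CCAAT box of the factor NF-Y and the E-box CACGTG, which SREBP can also bind. CCAAT was found for 17 of 18 genes of sterol synthesis and sensing (94.4%), with Scap as the exception. It was found for 2 of 7 genes of sterol efflux and fatty acid synthesis (28.6%) and for 37.5% of 27025 genes with a promoter in the table. CACGTG was found for 5 of the 18 (27.8%) and 1 of the 7 (14.3%), against 6.86% of all genes, and TCACNCCAC for 1 of the 18 (5.56%), against 1.22%. A gene with several promoters counted when any of them matched. These matches are descriptions of letters and not of binding. Shown here are the promoters of Hmgcs1, the 1 gene with TCACNCCAC, of Idi1 and Cyp51, whose falls in Alport kidneys were the largest of the synthesis genes, and of Insig1, the sterol sensor with the largest fall. Each runs 5′ to 3′ on the strand of its gene, in the order Hmgcs1 at chr13:119690101-119690350 (plus strand), Idi1 at chr13:8885356-8885605 (plus), Cyp51 at chr5:4104698-4104947 (minus) and Insig1 at chr5:28071162-28071411 (plus). Capitals mark the matches, and ATTGG is CCAAT on the opposite strand.
Hmgcs1: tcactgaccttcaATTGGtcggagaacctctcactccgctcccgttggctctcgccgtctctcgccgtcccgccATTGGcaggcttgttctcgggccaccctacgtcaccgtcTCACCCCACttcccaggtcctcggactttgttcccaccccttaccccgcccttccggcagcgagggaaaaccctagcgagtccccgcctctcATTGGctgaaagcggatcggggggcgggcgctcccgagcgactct
Idi1: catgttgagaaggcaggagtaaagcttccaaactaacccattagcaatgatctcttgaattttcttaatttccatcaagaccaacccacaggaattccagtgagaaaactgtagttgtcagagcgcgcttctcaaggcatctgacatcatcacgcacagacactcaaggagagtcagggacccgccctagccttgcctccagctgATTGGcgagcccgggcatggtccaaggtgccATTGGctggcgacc
Cyp51: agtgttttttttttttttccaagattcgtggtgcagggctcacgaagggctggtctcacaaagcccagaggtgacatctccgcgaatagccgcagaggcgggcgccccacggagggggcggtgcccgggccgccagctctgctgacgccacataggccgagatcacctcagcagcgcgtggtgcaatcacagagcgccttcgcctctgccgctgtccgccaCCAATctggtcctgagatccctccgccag
Insig1: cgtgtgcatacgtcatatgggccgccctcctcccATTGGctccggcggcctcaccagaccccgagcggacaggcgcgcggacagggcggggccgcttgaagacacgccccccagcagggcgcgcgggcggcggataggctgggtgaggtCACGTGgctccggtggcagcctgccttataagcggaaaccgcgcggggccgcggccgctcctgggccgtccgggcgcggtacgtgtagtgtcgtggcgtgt
Hmgcs1 held 3 CCAAT matches and TCACCCCAC 137 to 129 bases before its start. Idi1 held CCAAT 45 to 41 and 14 to 10 bases before its start, Cyp51 held it 29 to 25 bases before, and Insig1 held it 216 to 212 bases before, with CACGTG 101 to 96 bases before.

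The arrays were close in their overall distributions, with median log2 values of the 12 samples from 5.88 to 6.065. Medians were 5.88 to 5.92 in wild type and higher in Alport vehicle, at 5.99 to 6.065. Those of the drug samples were 5.94 to 5.99. Pearson correlations over the probe sets were 0.990 to 0.994 between samples of a group and 0.975 to 0.993 between samples of different groups (genes are not independent replicates). Col4a5, the mutated gene, fell by 0.92 ± 0.23 on the log2 scale (SE, 3 samples each) between wild type and Alport vehicle. Its signal was dim, at 5.06 to 5.83 in wild type and 4.13 to 4.97 in Alport vehicle, below the median of all 12 samples. All 31 genes entered the tests, since no filter on low values was used. Mvk, Fdps, Msmo1 and Abcg1 lay below the sample median in 6, 6, 3 and 8 of the 12 samples, and no member lay below the lower quartile of a sample. The tissue label was borne out by kidney markers, with Slc34a1, the phosphate transporter of the proximal tubule, at 18.40 to 19.19 and Umod, the thick limb protein, at 18.51 to 18.94.

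Genes of cholesterol synthesis fell in vehicle-treated Alport kidneys and were higher again in Alport kidneys given either drug. In Alport vehicle against wild type, 14 of the 31 members fell and 2 rose (limma, Benjamini-Hochberg adjusted p under 0.05), where 7.71% of all probe sets fell and 8.43% rose. The fall took in 10 of 17 synthesis genes and 3 of 5 sensing genes, with none of either role rising. Idi1, the isomerase that makes the second isoprenoid building block, had the largest fall, at 3.32-fold, and the exporter Abca1 rose 4.69-fold. The median log2 change was -0.80 over the synthesis genes and -0.03 over all probe sets. In each of the 16 called members the 3 Alport vehicle samples lay wholly on one side of the 3 wild type samples. A call at this sample size tends to bring such separation. It was not counted over all probe sets, here or in the drug comparisons below. When every sample was centred on its own median, 6.53% of all probe sets rose and 12.8% fell, the median over all probe sets moved from -0.03 to -0.17 (log2), and 1 member rose and 15 fell. No called member changed sign under that or any other alternative tried. Without Alport vehicle sample 1, 10 members fell, and 1 rose, where 5.03% of all probe sets fell and 6.44% rose.

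With losartan 13 of 31 members were called higher than in Alport vehicle and 2 lower, where 3.79% of all probe sets rose and 4.11% fell. Of the synthesis genes 9 of 17 rose, with a median log2 change of 0.83 over the 17 against 0.01 over all probe sets, and 3 of 5 sensing genes rose. The members that fell were Abca1 and Scd1, the desaturase that makes monounsaturated fatty acids. In all 15 the samples of both groups did not overlap. Centring on the median gave 5.58% of all probe sets higher and 3.26% lower, with 17 members higher and 2 lower. The count of risen members was 6 without Alport vehicle sample 1, 5 without losartan sample 2 and 7 without losartan sample 3. Of all probe sets 1.31%, 1.26% and 2.06% rose in these fits, in the same order. The count of fallen members was 0 without Alport vehicle sample 1 (2% of all probe sets) and 1 without losartan sample 2 (1.96%).

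With metformin 13 of 31 members rose and 1 fell against Alport vehicle, where 2.67% of all probe sets rose and 2.27% fell. Again 9 of 17 synthesis genes rose, with a median log2 change of 0.79 over the 17 against -0.01 over all probe sets, as did 3 of 5 sensing genes. The member that fell was Acly, the enzyme that makes cytosolic acetyl-CoA from citrate. The groups did not overlap for any of the 14 but Idi1. Centring on the median gave 3.72% of all probe sets higher and 1.72% lower, with 14 members higher and 1 lower. The count of risen members was 3 without Alport vehicle sample 1, 8 without metformin sample 2 and 5 without metformin sample 3. Of all probe sets 0.752%, 1.67% and 0.684% rose in these fits, in the same order. The count of fallen members was 0 without Alport vehicle sample 1 (0.811% of all probe sets) or 3 (1.31%) or metformin sample 3 (0.513%). It was 3 without Alport vehicle sample 2 (2.86%). The Alport vehicle samples serve in both drug comparisons and in the one against wild type, so a low value in them enters all of these.

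The drugs were also set directly against each other. No member passed the test between metformin and losartan (limma adjusted p under 0.05), where 0.018% of all probe sets were higher with metformin and 0.027% lower. The count was 0 under each alternative too. At an unadjusted p under 0.05 there were 5 members, Sqle, Abcg1 and Scd1 higher with metformin and Hsd17b7 and Sc5d lower. The same threshold took in 1859 of 22206 probe sets. The differences of the 17 synthesis genes ran from -0.70 to 0.52 with a median of -0.01. Their 95% intervals reached down to -1.15 (Hsd17b7) and up to 0.98 (Mvd). Others were narrower, such as -0.46 to 0.41 for Dhcr7. For each gene, differences within its own interval could not be told apart at this number of arrays. Against wild type, losartan left no member called, where 0.401% of all probe sets were higher and 0.149% lower. The count of called members was also 0 under each alternative. At an unadjusted p under 0.05 there were 4 members, beside 2385 of 22206 probe sets. Metformin left Abca1 higher and Acly lower than wild type, where 2.7% of all probe sets were higher and 1.48% lower. Centring on the median gave 2.31% and 2.19% there, with 1 member higher and 2 lower. A member that did not pass against wild type is not shown to be back at its wild type level.

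**Figure D1:**
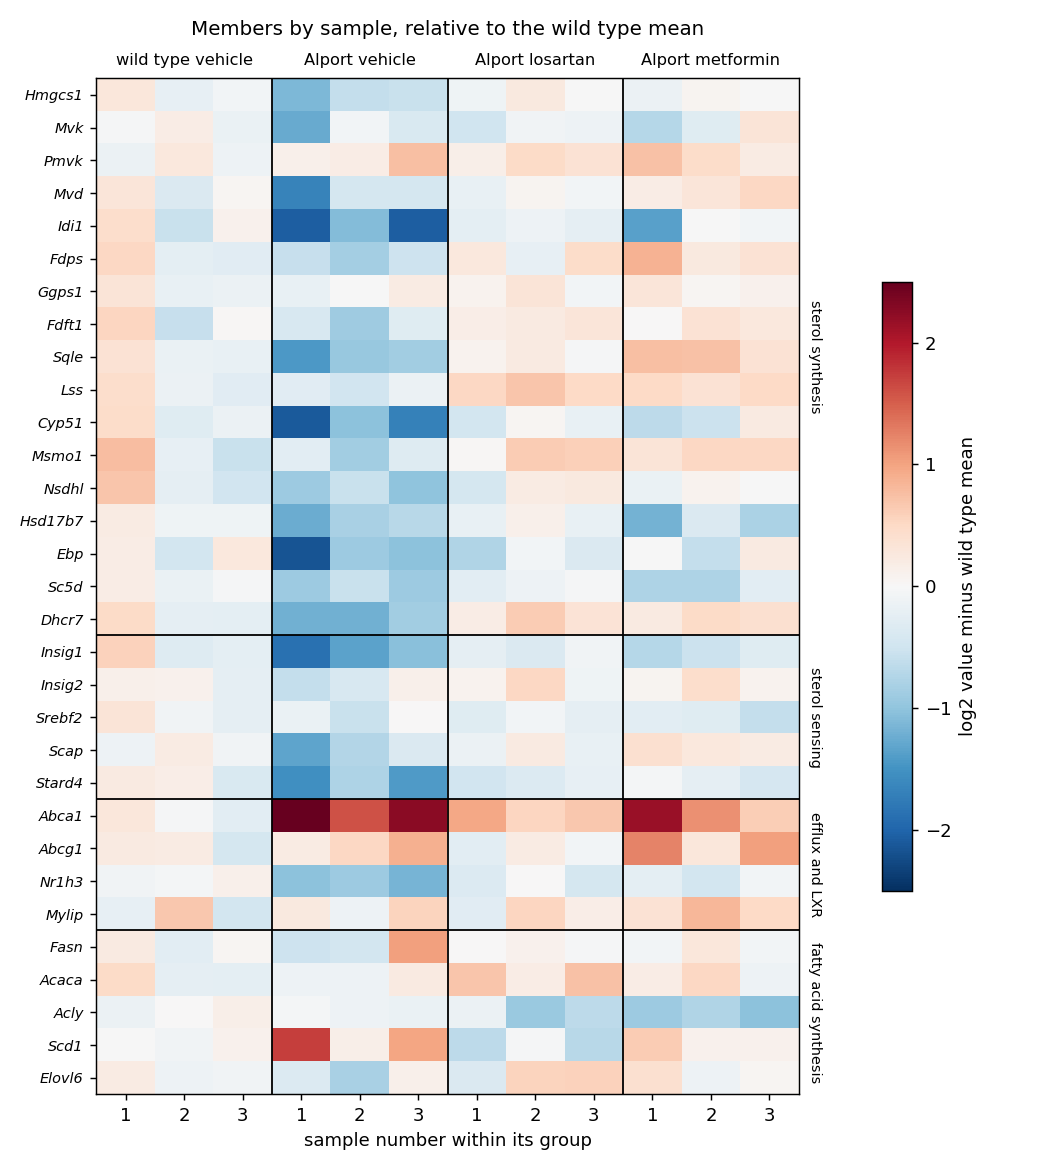
Log2 value of each of the 31 measured genes (rows, ordered by role) in each of the 12 samples (columns, by group), minus the mean of the 3 wild type samples; blue is lower and red higher, and the colour scale ends at 2.5 in either direction. The Alport vehicle columns are blue over most synthesis and sensing genes, Abca1 is red there, and the drug columns are paler.

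**Figure D2:**
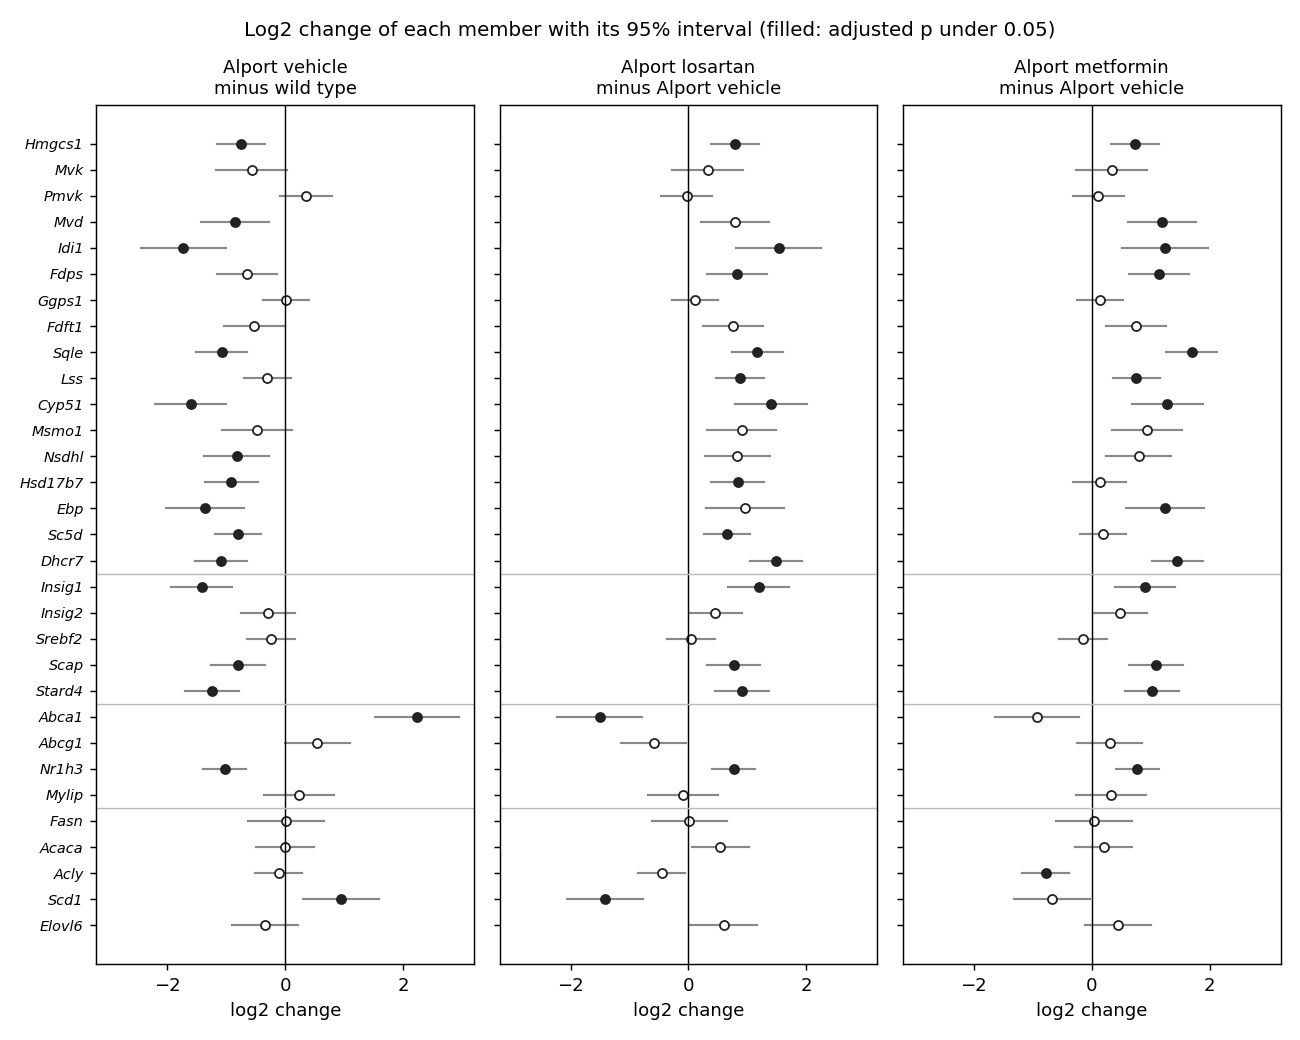
Log2 change of each measured gene (dots) with its 95% interval from limma (lines) in 3 comparisons; filled dots have an adjusted p under 0.05 and open dots do not. Filled dots among the synthesis and sensing genes lie left of 0 in Alport vehicle against wild type and right of 0 with either drug against Alport vehicle.

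The first steps of the pathway run from acetyl-CoA to the isoprenoid diphosphates. Idi1 read 11.83, 10.83 and 11.50 in wild type, 9.33, 10.31 and 9.33 in Alport vehicle, 11.15, 11.25 and 11.16 under losartan and 10.02, 11.37 and 11.31 under metformin. All losartan samples stood above all Alport vehicle samples, while metformin sample 1 stood below Alport vehicle sample 2. Its log2 change was -1.73 ± 0.34 in Alport vehicle against wild type (adjusted p = 0.00206), 1.53 ± 0.34 with losartan against Alport vehicle (0.0123) and 1.24 ± 0.34 with metformin (0.0472; limma, SE, n = 3 per group). The losartan call was lost without Alport vehicle sample 1 (adjusted p = 0.0666) or losartan sample 2 (0.0527), and the metformin call without Alport vehicle sample 1 (0.177) or 3 (0.139) or metformin sample 2 (0.166) or 3 (0.193). The metformin call was also lost with quantile normalization (0.0530), a trended robust prior (0.0607), array weights (0.0739), a replicate block (0.0618) or only the groups compared (0.115).

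Fdps, the synthase that makes farnesyl diphosphate, read 6.41, 5.65 and 5.61 in wild type, 5.31, 5.04 and 5.37 in Alport vehicle, 6.15, 5.68 and 6.35 under losartan and 6.75, 6.13 and 6.26 under metformin. Every Alport vehicle sample was below every other sample. The difference of -0.65 ± 0.24 in Alport vehicle against wild type did not pass (limma adjusted p = 0.0804). It did with median centring (0.0276), quantile normalization (0.0371) or a replicate block (0.0409). Fdps rose by 0.82 ± 0.24 with losartan (0.0466) and by 1.14 ± 0.24 with metformin (0.0135). The losartan call was lost in 5 of the 6 fits that left out 1 sample, with adjusted p-values of 0.107, 0.12 and 0.0738 without Alport vehicle samples 1, 2 and 3 and of 0.117 and 0.18 without losartan samples 1 and 3. It was also lost with array weights (0.0608).

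Hmgcs1, a synthase that uses acetyl-CoA early in the pathway, fell by 0.75 ± 0.19 in Alport vehicle (limma adjusted p = 0.0119). It rose by 0.79 ± 0.19 with losartan (0.0184) and by 0.73 ± 0.19 with metformin (0.0394). Its wild type samples read 16.44 to 16.93 and its Alport vehicle samples 15.54 to 16.10. Mvd, which decarboxylates mevalonate diphosphate, fell by 0.85 ± 0.27 (0.0434) and rose by 1.19 ± 0.27 with metformin (0.0210), while its difference of 0.79 ± 0.27 with losartan did not pass (0.0935; 0.0420 without Alport vehicle sample 2). Without Alport vehicle sample 1 no call of Hmgcs1 or Mvd remained, with adjusted p-values of 0.0696, 0.0998 and 0.173 for Hmgcs1 in the order of those comparisons and of 0.204 and 0.0739 for the calls of Mvd. Some were also lost without another sample. The fall of Hmgcs1 was lost without wild type sample 1 (0.0662) and that of Mvd without wild type sample 1 (0.171) or 3 (0.111). The rise of Hmgcs1 was lost without losartan sample 2 (0.0959) or 3 (0.0502) and without metformin sample 1 (0.058), 2 (0.114) or 3 (0.124), and that of Mvd without metformin sample 2 (0.0547) or 3 (0.0909). With quantile normalization no call of Hmgcs1 remained (0.0545, 0.0546 and 0.0859). With only the groups compared the rise of Hmgcs1 with metformin (0.0887) and both calls of Mvd (0.0948 and 0.0728) were lost. The kinases Mvk and Pmvk, which in turn make mevalonate into its diphosphate, and Ggps1, which makes geranylgeranyl diphosphate for protein anchors, passed in no comparison. Mvk stood at -0.57 in Alport vehicle against wild type, Pmvk at 0.35 and Ggps1 at 0.01, with standard errors of 0.28, 0.20 and 0.18.

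The step from squalene to the first sterol is made by Sqle and Lss. Sqle, the epoxidase that is a rate-limiting enzyme of the pathway, read 10.31, 9.78 and 9.76 in wild type, 8.52, 9.01 and 9.09 in Alport vehicle, 10.04, 10.17 and 9.92 under losartan and 10.71, 10.68 and 10.31 under metformin. Alport vehicle samples were the 3 lowest, and the lowest metformin sample equalled the highest wild type sample. Sqle fell by 1.08 ± 0.20 in Alport vehicle (limma adjusted p = 0.00145) and rose by 1.17 ± 0.20 with losartan (0.00275) and by 1.69 ± 0.20 with metformin, a 3.23-fold rise (0.000747). These calls held under each of 14 alternatives. Metformin minus losartan was 0.52 with a 95% interval of 0.095 to 0.952 and did not pass (adjusted p = 0.495), nor did metformin against wild type at 0.62 (0.105).

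Lss, the cyclase that forms lanosterol, read 9.83, 9.24 and 9.10 in wild type, 9.10, 8.91 and 9.24 in Alport vehicle, 9.90, 10.08 and 9.89 under losartan and 9.88, 9.75 and 9.88 under metformin. Wild type sample 1 was well above the other wild type samples, which overlapped with Alport vehicle, and all drug samples but metformin sample 2 were above all wild type samples. The difference of -0.31 ± 0.19 in Alport vehicle did not pass (limma adjusted p = 0.326), while Lss rose by 0.87 ± 0.19 with losartan (0.0103) and 0.75 ± 0.19 with metformin (0.0318). The losartan call was lost without losartan sample 2 (0.0538). The metformin call was lost without Alport vehicle sample 1 (0.0922) or 2 (0.0778) or any 1 metformin sample (0.0779, 0.0617 and 0.112 without samples 1, 2 and 3), or with only the groups compared (0.0529). Fdft1, which makes squalene, passed in no comparison, with differences of -0.53 ± 0.24, 0.75 ± 0.24 and 0.74 ± 0.24 (adjusted p = 0.161, 0.068 and 0.0903). It passed in Alport vehicle without wild type sample 2 (0.0225), and with losartan under median centring (0.0380) or with only the groups compared (0.0473).

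The later enzymes turn lanosterol into cholesterol. Cyp51, the demethylase that acts first on lanosterol, read 13.15, 12.39 and 12.55 in wild type, 10.60, 11.67 and 11.01 in Alport vehicle, 12.23, 12.75 and 12.51 under losartan and 12.05, 12.15 and 12.93 under metformin. The Alport vehicle samples were spread over a log2 unit and still lay below all others. Cyp51 fell by 1.60 ± 0.29, or 3.04-fold (limma adjusted p = 0.000978), and rose by 1.40 ± 0.29 with losartan (0.00748) and by 1.28 ± 0.29 with metformin (0.0178). The metformin call was lost without Alport vehicle sample 1 (0.0959) or 3 (0.0523) or metformin sample 3 (0.0957), or with only the groups compared (0.0561).

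Dhcr7, the reductase of the last step to cholesterol, read 9.12, 8.41 and 8.40 in wild type, 7.44, 7.44 and 7.78 in Alport vehicle, 8.83, 9.28 and 8.99 under losartan and 8.86, 9.12 and 9.04 under metformin. Both drug groups lay above wild type samples 2 and 3 and around wild type sample 1. Dhcr7 fell by 1.09 ± 0.21 (limma adjusted p = 0.00153) and rose by 1.48 ± 0.21 with losartan (0.000684) and by 1.45 ± 0.21 with metformin (0.00172). These calls held under each of 14 alternatives.

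Ebp, the isomerase that moves a ring double bond, read 11.90, 11.24 and 11.98 in wild type, 9.54, 10.80 and 10.69 in Alport vehicle, 10.95, 11.63 and 11.34 under losartan and 11.70, 11.12 and 11.93 under metformin. Alport vehicle sample 1 was over a log2 unit below the other samples of its group. Ebp fell by 1.36 ± 0.31 (limma adjusted p = 0.00618) and rose by 1.24 ± 0.31 with metformin (0.0326), while 0.96 ± 0.31 with losartan did not pass (0.0735; 0.0359 without Alport vehicle sample 2 and 0.0479 with median centring). The metformin call was lost without Alport vehicle sample 1 (0.144) or metformin sample 1 (0.0815) or 3 (0.145), or with only the groups compared (0.0806).

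Sc5d, the desaturase that prepares the substrate of Dhcr7, read 13.10, 12.75 and 12.89 in wild type, 12.00, 12.35 and 12.00 in Alport vehicle, 12.65, 12.78 and 12.89 under losartan and 12.14, 12.15 and 12.64 under metformin. Losartan samples overlapped with wild type, and 2 of 3 metformin samples lay within the range of Alport vehicle. Sc5d fell by 0.80 ± 0.18 (limma adjusted p = 0.0062) and rose by 0.66 ± 0.18 with losartan (0.0369), and its difference of 0.19 ± 0.18 with metformin did not pass (0.653). Hsd17b7, a ketosteroid reductase of the same stretch, did likewise, with a fall of 0.91 ± 0.21 (0.0072), a rise of 0.83 ± 0.21 with losartan (0.0251) and 0.13 ± 0.21 with metformin (0.819). Metformin minus losartan was -0.46 for Sc5d and -0.70 for Hsd17b7, and neither passed (limma adjusted p = 0.501 and 0.368), so a difference between the drugs is not shown for them. Against wild type, metformin stood at -0.60 ± 0.18 for Sc5d and -0.78 ± 0.21 for Hsd17b7, which did not pass (0.0768 and 0.0514), with all 3 metformin samples of each gene below all wild type samples. Hsd17b7 passed there with median centring (0.0370), quantile normalization (0.0456), the dimmest probe sets left out (0.0420), a trended robust prior (0.0376) or array weights (0.0408), and Sc5d with the last 2 of these (0.0456 and 0.0493). Leaving out metformin sample 2 let Hsd17b7 pass (0.0324), and leaving out metformin sample 3 let Sc5d pass (0.0291). The losartan call of Sc5d was lost in 5 of 6 fits that left out a sample, at adjusted p-values of 0.134 and 0.11 without Alport vehicle samples 1 and 3 and of 0.0516, 0.11 and 0.127 without losartan samples 1, 2 and 3, and with quantile normalization (0.0772) or only the groups compared (0.0576). That of Hsd17b7 was lost without Alport vehicle sample 1 (0.127) or losartan sample 2 (0.118) or 3 (0.0556).

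Nsdhl, a sterol dehydrogenase, fell by 0.82 ± 0.26 in Alport vehicle (limma adjusted p = 0.0410). The call was lost without wild type sample 1 (0.211) or 2 (0.0509) or Alport vehicle sample 1 (0.115) or 3 (0.129), and with quantile normalization (0.0850), array weights (0.0705) or only the groups compared (0.0667). Its differences of 0.83 ± 0.26 with losartan and 0.79 ± 0.26 with metformin did not pass (0.0646 and 0.0962). Msmo1, the methyl oxidase upstream of it, passed in no comparison, with -0.48 ± 0.28, 0.90 ± 0.28 and 0.94 ± 0.28 in the same order. With losartan both passed without losartan sample 1 (0.0333 for Nsdhl and 0.0432 for Msmo1) and with median centring (0.0404 and 0.0349). Nsdhl also passed there with a trended robust prior (0.0404), and Msmo1 with quantile normalization (0.0381), without the dimmest probe sets (0.0489) and with only the groups compared (0.0414). With metformin Msmo1 passed with median centring (0.0440) and with only the groups compared (0.0462).

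**Figure D3:**
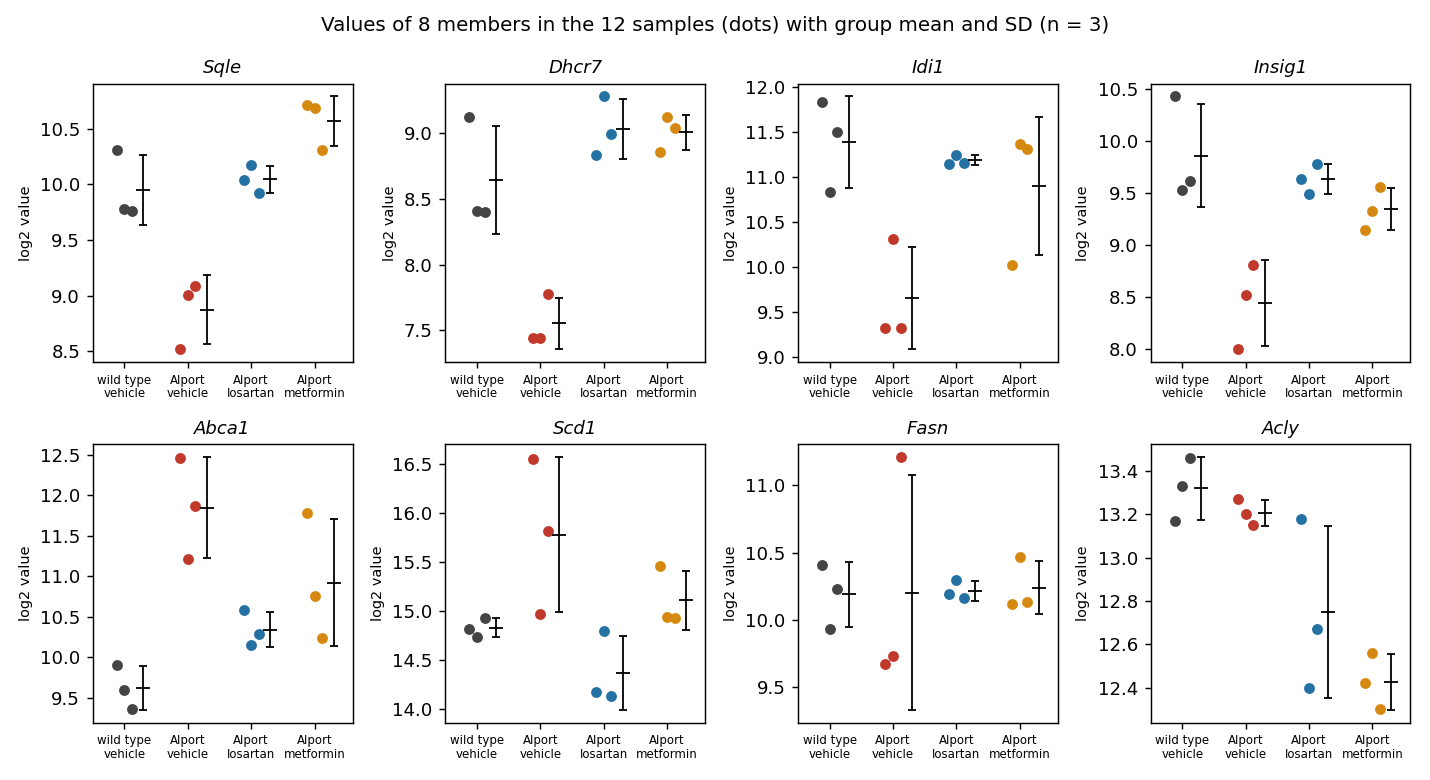
Log2 values of 8 genes in the 12 samples (dots, coloured by group) with the mean and SD of each group of 3 (bars); each panel has its own axis range, which does not start at 0. Sqle, Dhcr7, Idi1 and Insig1 are lowest with Alport vehicle, Abca1 and Scd1 highest there, Fasn has 1 high Alport vehicle sample, and Acly is lowest with metformin.

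The synthesis genes were also counted sample by sample. Of the 17 genes, 12, 14 and 12 lay below the lowest wild type sample in Alport vehicle samples 1, 2 and 3, against 5, 0 and 1 in the losartan samples and 5, 5 and 2 in the metformin samples. In Alport vehicle sample 3, 1 gene lay above the highest wild type sample. Alport vehicle sample 1 was the lowest of all 12 samples for 10 of 17 genes, and wild type sample 1 the highest for 9 of 17. Such counts were not made over all probe sets, so they stand without a background share. The mean of the 17 genes, relative to the wild type mean, was -1.04, -0.65 and -0.63 in Alport vehicle, -0.10, 0.19 and 0.09 under losartan and -0.07, 0.06 and 0.17 under metformin. The wild type samples themselves ran from -0.22 to 0.35, and all drug samples lay within that range.

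Among the sterol sensing genes, those that passed were a retention protein, its partner and a carrier. Insig1, which holds the SCAP complex in the endoplasmic reticulum and is itself a target of SREBP2, read 10.43, 9.53 and 9.62 in wild type, 8.0, 8.52 and 8.81 in Alport vehicle, 9.64, 9.49 and 9.78 under losartan and 9.15, 9.33 and 9.56 under metformin. All Alport vehicle samples lay below all others, and losartan sample 2 and metformin samples 1 and 2 lay below all wild type samples. Insig1 fell by 1.42 ± 0.24, or 2.67-fold (limma adjusted p = 0.000706), and rose by 1.19 ± 0.24 with losartan (0.00745) and by 0.90 ± 0.24 with metformin (0.0438). The metformin call was lost in 5 of 6 fits that left out a sample, with adjusted p-values of 0.191 and 0.0594 without Alport vehicle samples 1 and 2 and of 0.0534, 0.0975 and 0.171 without metformin samples 1, 2 and 3, and with array weights (0.0527) or only the groups compared (0.0695).

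Scap, the escort of SREBP2, read 11.97, 12.31 and 12.02 in wild type, 10.79, 11.37 and 11.74 in Alport vehicle, 11.96, 12.32 and 11.91 under losartan and 12.50, 12.36 and 12.30 under metformin. Alport vehicle sample 3 came close to the lowest losartan sample, and 2 of 3 metformin samples were above all wild type samples. Scap fell by 0.80 ± 0.22 (limma adjusted p = 0.0171) and rose by 0.76 ± 0.22 with losartan (0.0394) and by 1.09 ± 0.22 with metformin (0.00973). The fall was lost without wild type sample 2 (0.0753) or Alport vehicle sample 1 (0.0944), and the rise with metformin without Alport vehicle sample 1 (0.0501). The rise with losartan was lost in 5 of 6 fits that left out a sample, with adjusted p-values of 0.192 and 0.0551 without Alport vehicle samples 1 and 2 and of 0.0628, 0.174 and 0.0664 without losartan samples 1, 2 and 3, and with quantile normalization (0.0627) or only the groups compared (0.0946).

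Stard4, which carries cholesterol between membranes, read 10.47, 10.41 and 9.87 in wild type, 8.72, 9.47 and 8.84 in Alport vehicle, 9.78, 9.90 and 10.05 under losartan and 10.21, 10.03 and 9.83 under metformin. Drug samples lay within or just below the wild type range, and Alport vehicle samples below both. Stard4 fell by 1.24 ± 0.22 (limma adjusted p = 0.000789) and rose by 0.90 ± 0.22 with losartan (0.0176) and by 1.01 ± 0.22 with metformin (0.0141). The losartan call was lost without Alport vehicle sample 1 (0.0931) or 3 (0.0642) or losartan sample 2 (0.0634) or 3 (0.0717), and the metformin call without Alport vehicle sample 1 (0.077). Srebf2 itself, the gene of the main activator, passed in no comparison, with differences of -0.24 ± 0.19 in Alport vehicle, 0.05 ± 0.19 with losartan and -0.15 ± 0.19 with metformin. Insig2 passed in none either, with -0.29 ± 0.22, 0.46 ± 0.22 and 0.48 ± 0.22.

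The sterol efflux genes did not move one way. Abca1, which exports cholesterol to apolipoprotein A-I, read 9.90, 9.59 and 9.36 in wild type, 12.46, 11.21 and 11.87 in Alport vehicle, 10.58, 10.15 and 10.29 under losartan and 11.78, 10.75 and 10.23 under metformin. All Alport samples, with or without drug, were above all wild type samples, and metformin sample 1 lay within the Alport vehicle range. Abca1 rose by 2.23 ± 0.34 in Alport vehicle (limma adjusted p = 0.000246) and fell by 1.51 ± 0.34 with losartan (0.0126), a call lost without Alport vehicle sample 1 (0.0744) or losartan sample 2 (0.0617). With metformin the difference of -0.93 ± 0.34 did not pass (0.135), though it did without metformin sample 1 (0.0194) or Alport vehicle sample 2 (0.0440), and neither did metformin minus losartan at 0.58 ± 0.34 (0.703). Against wild type Abca1 was higher by 1.30 ± 0.34 with metformin (0.0392), a call lost without any 1 wild type sample (0.0606, 0.105 and 0.15 without samples 1, 2 and 3) or metformin sample 1 (0.188) or 2 (0.084).

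Nr1h3, the gene of LXR alpha, which activates Abca1, moved the other way. It read 10.87, 10.91 and 11.07 in wild type, 9.93, 10.05 and 9.79 in Alport vehicle, 10.61, 10.96 and 10.51 under losartan and 10.70, 10.50 and 10.89 under metformin. The 3 Alport vehicle samples were close together and below all others. Nr1h3 fell by 1.03 ± 0.17 (limma adjusted p = 0.000581) and rose by 0.77 ± 0.17 with losartan (0.0125) and by 0.77 ± 0.17 with metformin (0.0175). The losartan call was lost without losartan sample 2 (0.0749), and the metformin call without Alport vehicle sample 1 (0.0638) or 3 (0.0582) or metformin sample 3 (0.0917), or with only the groups compared (0.0555). Abcg1, an exporter to high-density lipoprotein, and Mylip, an LXR target that marks lipoprotein receptors for degradation, passed in no comparison. Abcg1 passed in metformin against wild type only without metformin sample 2 (0.0341), and Mylip under none of the alternatives. Abcg1 stood at 0.54 ± 0.26 in Alport vehicle against wild type and at 0.90 ± 0.26 in metformin against losartan (adjusted p = 0.186 and 0.336), and Mylip at 0.23 ± 0.28 in Alport vehicle.

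Of the fatty acid synthesis genes, Scd1 and Acly passed a test and Fasn, Acaca and Elovl6 passed none. Scd1 read 14.82, 14.74 and 14.93 in wild type, 16.55, 14.97 and 15.82 in Alport vehicle, 14.17, 14.80 and 14.13 under losartan and 15.46, 14.94 and 14.93 under metformin. The Alport vehicle samples were spread widely, and sample 2 of them was only just above wild type. Scd1 rose by 0.95 ± 0.30 (limma adjusted p = 0.0418) and fell by 1.41 ± 0.30 with losartan (0.00969), while -0.67 ± 0.30 with metformin did not pass (0.243; 0.0235 without Alport vehicle sample 2). The rise was lost in 5 of 6 fits that left out a sample. Adjusted p-values were 0.102, 0.111 and 0.0805 without wild type samples 1, 2 and 3 and 0.213 and 0.1 without Alport vehicle samples 1 and 3, with a log2 change of 0.56 without Alport vehicle sample 1. It was also lost with median centring (0.0633), a trended robust prior (0.0649) or only the groups compared (0.0639). The fall with losartan was lost without Alport vehicle sample 1 (0.0504).

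Acly read 13.17, 13.33 and 13.46 in wild type, 13.27, 13.20 and 13.15 in Alport vehicle, 13.18, 12.40 and 12.67 under losartan and 12.42, 12.56 and 12.30 under metformin. Wild type and Alport vehicle overlapped, all metformin samples were below both, and the losartan samples were split, with sample 1 at the level of Alport vehicle. Acly differed by -0.11 ± 0.19 in Alport vehicle (limma adjusted p = 0.77), fell by 0.78 ± 0.19 with metformin against Alport vehicle (0.0272) and was lower by 0.46 ± 0.19 with losartan, which did not pass (0.175; 0.0373 without losartan sample 1). Metformin minus losartan, -0.32 ± 0.19, did not pass either (0.705). Against wild type Acly was lower with metformin, at -0.89 ± 0.19 (0.0141), a call lost without wild type sample 3 (0.0731) or metformin sample 1 (0.0577). The call against Alport vehicle was lost without Alport vehicle sample 1 (0.0969) or 3 (0.0549) or metformin sample 1 (0.0621) or 3 (0.117).

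Fasn, the fatty acid synthase, was singled out after its values were seen, because 1 sample set its group mean. It read 10.41, 9.93 and 10.23 in wild type and 9.67, 9.73 and 11.21 with Alport vehicle, and ran from 10.12 to 10.47 over the drug samples. Alport vehicle samples 1 and 2 were the lowest of all samples and sample 3 the highest. Fasn differed by 0.01 ± 0.30 in Alport vehicle against wild type (limma adjusted p = 0.987) and by -0.49 without Alport vehicle sample 3 (0.117). Adipocyte markers stood out in the same sample, of which the following were also chosen after their values were seen, with Adipoq at 5.82 against 3.24 to 4.65 in the other samples, Ucp1 at 6.93 and Cidec at 5.82. The mean of the 8 measured adipocyte markers, minus wild type, was 0.34, -0.09 and 1.30 in Alport vehicle samples 1, 2 and 3 and reached 0.59 in losartan sample 1. In Alport vehicle against wild type, the log2 change was positive for 7 of the 8 and negative for 1. Of these markers 0 of 8 passed in any of the 3 main comparisons, where 2.27% to 8.43% of all probe sets passed in each direction. Lipe had the highest mean, and Lep lay below the lower quartile of all 12 samples. Their part in the Fasn values was not tested. Acaca, which makes malonyl-CoA, stood at -0.01 ± 0.23, 0.54 ± 0.23 and 0.20 ± 0.23 in the 3 main comparisons, and the elongase Elovl6 at -0.34 ± 0.27, 0.60 ± 0.27 and 0.45 ± 0.27. Elovl6 passed with losartan when losartan sample 1 was left out (limma adjusted p = 0.0409).

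Further genes of these pathways were listed apart from the members. Over all probe sets 8.43% rose and 7.71% fell in Alport vehicle against wild type. With losartan 3.79% rose and 4.11% fell, and with metformin 2.67% rose and 2.27% fell. Among 17 measured genes of lipogenesis and triglyceride synthesis beyond the members, 8 fell and none rose in Alport vehicle against wild type, 3 rose with losartan (Dgat2, Lpin1 and Me1, the malic enzyme, the last of these named after its values were seen) and 2 with metformin. The triglyceride synthase Dgat2 fell by 1.31 ± 0.18 (limma adjusted p = 0.000121), the phosphatase Lpin1 by 1.33 ± 0.19 (0.000142), the acyltransferase Gpam by 1.14 ± 0.16 (0.000142). Mlxipl, the gene of the carbohydrate-sensing factor ChREBP, fell by 1.75 ± 0.32 (0.00132). Dgat2 rose by 0.95 ± 0.18 with losartan (0.00549) and by 0.80 ± 0.18 with metformin (0.0201), and Lpin1 by 1.01 ± 0.19 (0.00451) and 0.91 ± 0.19 (0.0131). Gpam stood at 0.23 ± 0.16 and 0.54 ± 0.16 and Mlxipl at 0.56 ± 0.32 and 0.78 ± 0.32 with the 2 drugs, and none of these 4 passed.

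Sterol transport, storage and oxysterol genes mostly did not pass, and those with the smallest p rose in Alport kidneys. Of 16 measured, 3 rose and 1 fell in Alport vehicle, 1 rose and 3 fell with losartan, and 1 fell with metformin. The gene that rose with losartan, named after its values were seen, was the oxysterol hydroxylase Cyp7b1, by 1.62 ± 0.36 (limma adjusted p = 0.0124). Pltp, the phospholipid transfer protein, rose 9.11-fold (log2 3.19 ± 0.46, limma adjusted p = 0.000167), the endocytic receptor Lrp1 3.47-fold (1.79 ± 0.20, 2.03e-05) and Ch25h, which makes an oxysterol that activates LXR, 2.63-fold (1.39 ± 0.21, 0.000197). The LXR partner Rxra fell by 0.56 ± 0.18 (0.0408). With losartan Lrp1 fell by 1.78, Pltp by 1.66 and Ch25h by 0.93, while with metformin only Lrp1 of these passed, falling by 1.42. Of 10 measured genes of isoprenoid branches 3 fell in Alport vehicle, Rabggta, a subunit of a geranylgeranyl transferase, by 1.26 ± 0.22, Coq2 of ubiquinone synthesis by 0.82 ± 0.27 and Dhdds of dolichol synthesis by 0.69 ± 0.21. Icmt, a methyltransferase of prenylated proteins, rose with losartan by 0.62, and Rabggta rose with metformin by 0.84. Of 6 measured genes of SREBP processing and sterol-regulated degradation, Aup1 fell by 0.70 ± 0.21 (0.0342) and Erlin1, Erlin2 and Rnf139 stood at -0.33, -0.26 and -0.22, with none passing with either drug. Few genes were measured in these lists, so a single call says little about a list.

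Whole kidney was measured, so fewer cells of a type and less RNA per cell cannot be told apart. Markers of several cell types moved with the groups in which the members moved. Beside the counts below, 8.43% of all probe sets rose and 7.71% fell in Alport vehicle. With losartan 3.79% rose and 4.11% fell, and with metformin 2.67% rose and 2.27% fell. Of 10 proximal tubule markers 9 fell in Alport vehicle with a median of -0.97, 6 rose with losartan and 4 with metformin. The mean of these 10, minus wild type, ran from -1.30 to -0.86 with Alport vehicle, -0.46 to -0.09 with losartan and -0.35 to -0.24 with metformin. The mean of the synthesis genes, taken relative to that of the proximal tubule markers and to wild type, was 0.27, 0.21 and 0.31 in Alport vehicle, 0.36, 0.28 and 0.18 under losartan and 0.28, 0.41 and 0.41 under metformin, against -0.19 to 0.29 in wild type. In Alport vehicle against wild type, single genes ran from -1.73 to 0.35 among the synthesis genes and from -1.83 to -0.56 among the proximal tubule markers. Of 9 macrophage markers 8 rose in Alport vehicle with a median of 2.65, 6 fell with losartan, and Mrc1 alone with metformin. Their mean, minus wild type, ran from 2.08 to 3.55 with Alport vehicle, 1.10 to 1.54 with losartan and 1.37 to 2.77 with metformin. Csf1r, the highest of them, stood at 0.51 ± 0.17 in Alport vehicle and did not pass (limma adjusted p = 0.0557). All 6 fibroblast markers rose in Alport vehicle and fell with either drug, with Dcn at 3.78 ± 0.22 in Alport vehicle. Of 5 thick limb markers, Egf fell by 2.03 in Alport vehicle and rose by 1.62 with losartan and by 1.49 with metformin, and Ptger3 rose with metformin. Of 6 markers of distal tubule and collecting duct, Slc12a3 and Pvalb fell and Aqp2 rose in Alport vehicle, and 0 passed with either drug. Of 4 podocyte markers Synpo rose in Alport vehicle and fell with metformin. Of 5 endothelial markers Kdr fell and Emcn rose in Alport vehicle, Kdr rose with losartan and Pecam1 fell with metformin, and of 4 lymphocyte markers Cd3e rose in Alport vehicle and fell with losartan. Apart from the highest of each list, these markers were named after their values were seen. No adrenal marker of 8 passed with either drug, and 1, Cyp21a1, which lay below the lower quartile of all 12 samples, fell by 0.49 in Alport vehicle. In lists of 4 to 8 genes, 1 call or none says little about a cell type. The part of these cell types in the values of the members was not tested.

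**Figure D4:**
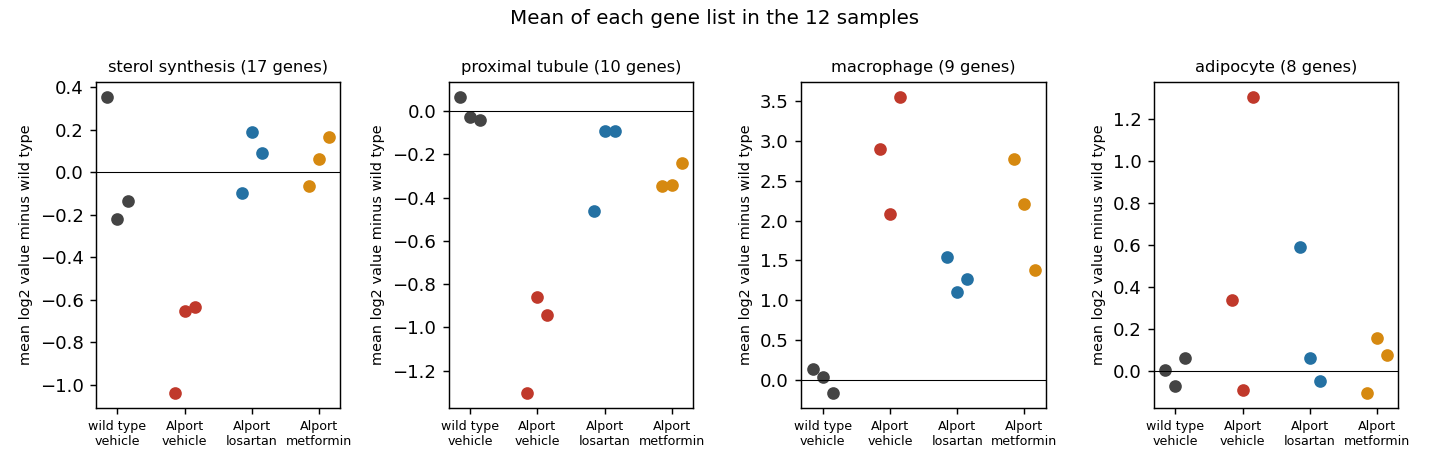
Mean log2 value of 4 gene lists in each of the 12 samples (dots, coloured by group), minus the wild type mean; each panel has its own axis range and the line marks 0. Sterol synthesis and proximal tubule means are lowest in the 3 Alport vehicle samples, macrophage means are above wild type in all Alport samples, with the metformin samples overlapping both other Alport groups, and the adipocyte mean stands out in Alport vehicle sample 3.

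Which calls withstood a change of processing differed between the comparisons. In Alport vehicle against wild type 9 of 16 member calls held under each of 14 alternatives, those of Idi1, Sqle, Cyp51, Ebp, Dhcr7, Insig1, Stard4, Abca1 and Nr1h3. With losartan 4 of 15 held, those of Sqle, Cyp51, Dhcr7 and Insig1, and with metformin 3 of 14, those of Fdps, Sqle and Dhcr7. Calls that held were not counted over all probe sets, so these counts stand without a background share. Calls over all probe sets became fewer too, such as from 592 to 152 risen with metformin when metformin sample 3 was left out. Calls lost under the 2-fold rule, which asks for a minimum size, are counted here and not listed beside each gene. Those that changed with a replicate block are listed in the closing section. Neither of the 2 calls in metformin against wild type held throughout. Sqle and Dhcr7 were the members whose calls held in all 3 main comparisons.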

How the data were processed

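The authors deposited log2 values of every probe set in 12 samples, 3 per group. Per the submitters' processing notes, Transcriptome Analysis Console 4.0 made the values. No source used here gives their background correction, normalization or probe summary, and the log2 scale was read from the deposited values, which run from 2.3 to 19.88. A single gene symbol was paired with 19572 of 22206 probe sets through the platform annotation.

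Groups were taken from the sample titles. A mean per group was fitted to all 12 samples and all probe sets in R 4.3.3 with lmFit and eBayes of limma 3.58.1 (8 residual degrees of freedom), with 6 two-sided contrasts and Benjamini-Hochberg adjustment over all probe sets of each. Changes are differences with an adjusted p under 0.05, and errors of log2 changes are standard errors. The procedure was tested on simulated data.

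Members, gene lists and tests were chosen with earlier results of these data known. Values in every sample are given for called members, at most the 8 per role with the smallest p. From each other pathway list come the 4 genes with the smallest p in Alport vehicle against wild type, and from each marker list the gene with the highest mean and those below the lower quartile of every sample. Alternatives were median centring, quantile normalization, a filter on the dimmest 33.3% of probe sets, a trended robust prior, array weights, a fit to just both groups compared, a 2-fold change at unadjusted p under 0.05, a replicate block and leaving out each sample. The number of arrays limits the precision.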

Additional observations from a re-analysis of the deposited data

How the results depend on the processing

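No called member changed sign under any alternative tried. Leaving out 1 sample at a time gave 1 to 2 risen and 10 to 14 fallen members in Alport vehicle against wild type, 5 to 13 and 0 to 3 with losartan against Alport vehicle, 3 to 11 and 0 to 3 with metformin against Alport vehicle, and 0 to 1 and 0 to 2 with metformin against wild type. It gave 0 in either direction between the drugs and for losartan against wild type, where at most 0.347% and 0.243% of all probe sets passed either way. Over all probe sets 6.39% to 8.95% rose and 5.03% to 7.97% fell in Alport vehicle. With losartan 1.26% to 4.31% rose and 1.96% to 5.02% fell, and with metformin 0.684% to 3.08% and 0.513% to 2.86%. In metformin against wild type the shares were 1.11% to 3.25% and 0.423% to 1.34%. In Alport vehicle 1 member rose with median centring (6.53% of all probe sets), a trended robust prior (8.43%) or only the groups compared (7.56%). With an unadjusted p and a 2-fold change 1 rose (4.62%) and 8 fell (2.43%). The same rule gave 5 risen members with losartan (1.2%), and 0 fallen members with metformin against Alport vehicle (1.22%) or wild type (0.441%). With only the groups compared, 6 rose with metformin (1.04%). Members lower with metformin than in wild type were 2 with median centring (2.19%), quantile normalization (1.54%) or the dimmest probe sets left out (2.63%). They were 3 with a trended robust prior (1.9%) or array weights (2.22%). Deviations of samples with the same replicate number correlated at -0.14 to 0.078, with 0 of 18 pairs over 0.1. The labels do not say whether replicate numbers pair samples, and these correlations cannot settle it. With a replicate block 2 members rose (8.02% of all probe sets) and 14 fell (6.99%) in Alport vehicle. With losartan 12 rose (3.22%) and 2 fell (3.74%), and with metformin 10 rose (2.18%) and 2 fell (1.91%). Between the drugs 0 passed, and against wild type 1 rose (2.44%) and 1 fell (1.18%) with metformin. The block lost the calls of Nsdhl in Alport vehicle (limma adjusted p = 0.0587) and Sc5d with losartan (0.0562). With metformin it lost those of Hmgcs1 (0.0586), Idi1 (0.0618) and Insig1 (0.0613). It let Fdps pass in Alport vehicle (0.0409) and Abca1 with metformin against Alport vehicle (0.0488). In the 6 comparisons 0, 3, 0, 1, 0 and 4 of 6 samples correlated best with the sample of their own number. The causes of these moves were not tested. Mvk, Fdps, Msmo1 and Abcg1 lay below the median in some samples, and dim signals limit what their changes can show.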
